A study of Mus musculus with 20 samples.

Results

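Hox genes encode homeodomain transcription factors that lie in 4 clusters of the mouse genome, and the members described here were chosen by name and by detection on the arrays. A probe belonged to the set when the scanner files gave it the name Hoxa, Hoxb, Hoxc or Hoxd with a number and when the scanner software called it well above background on 4 or more of a tissue's 10 arrays. Of 38 Hox genes with 49 probes on the array, among 41174 probes in all, 30 genes with 37 probes met this rule in white adipose tissue (WAT), and 11 of those genes, with 13 probes, also met it in liver. The 12 probes outside it are accounted for where detection is described.

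The study compared WT mice with RORasg/sg mice, called sg/sg here, the staggerer line, in which part of Rora is deleted by a spontaneous mutation. Rora encodes RORα, a nuclear receptor that acts as a transcription factor. All mice were males of strain C57BL/6 aged 5 months and were kept on a high fat diet (35% fat) for 6 weeks, so both genotypes share the diet and no group on another diet is described here. RNA of liver and of WAT from WT and sg/sg mice was hybridised to 1-colour Agilent arrays, with 5 arrays per genotype and tissue, 20 in all. The deletion is carried in the germ line and so is not limited to liver or fat, and the labels do not name the fat depot. They do not tie a liver array to a WAT array either, and p-values measure the spread between these arrays.

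The arrangement of Hox genes along a cluster mirrors where and when they act in the embryo: low-numbered genes, at one end, act early and towards the head, and high-numbered genes act later and towards the tail. Genes with the same number in different clusters are called paralogues. The proteins bind DNA together with cofactors of the TALE class, Pbx, Meis and Pknox. Polycomb complexes keep the clusters silent and trithorax complexes of the MLL type keep them active, while retinoic acid is a known inducer of the low-numbered genes in the embryo. Adult tissues retain part of the embryonic pattern, and fat depots are known to differ in which Hox genes they express.

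The array reads these genes through 60-base oligonucleotides, and sequences of related genes can resemble each other. Signal from a related transcript cannot be told apart from signal of the named gene by the probe alone, and this holds for called probes too, some of which share runs of bases with another called probe. The longest run shared by any 2 Hox probes, 22 of 60 bases, was between called probes of different genes. Whether their rises are separate, and the part of such signal in the calls, was not tested. The pair of probes shown here has no called member and is given for the motif it shares, and other pairs of Hox probes share longer runs. Coordinates are those of the scanner files on build mm7, for which no exon annotation was used here. The Hoxa6 probe at chr6:52171564-52171623 (minus strand) and a Hoxd3 probe at chr2:74588190-74588249 (plus strand) share a run of 10 bases. It holds the codons for proline, tryptophan and methionine, in capitals here, the core of the hexapeptide through which Hox proteins contact Pbx.
Hoxa6: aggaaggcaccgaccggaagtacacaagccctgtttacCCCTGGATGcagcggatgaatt
Hoxd3: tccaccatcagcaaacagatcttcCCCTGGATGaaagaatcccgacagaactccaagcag

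One probe that the files name Hoxb2, A_51_P257789, is listed at chr11:96459585-96459644 on the minus strand, opposite to the other Hoxb probes, and its accession was not in the RefSeq table. It is described under its probe name, since it would report a transcript of the opposite strand. A second Hoxb2 probe, A_52_P15300, at chr11:96462847-96462906, has the orientation of the cluster.
Hoxb2 A_51_P257789: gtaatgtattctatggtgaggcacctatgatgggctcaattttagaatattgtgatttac

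RORα binds the letters AGGTCA with an AT-rich stretch in front of them. RefSeq promoter windows (GRCm38.p6) were at hand for 17 of the 30 Hox genes, and the 250 bases before the start held AGGTCA on either strand, TGACCT on the other, in 6 of these, against 15.8% of 27025 genes. The 6 were Hoxb4, Hoxc4, Hoxd3, Hoxd4, Hoxd8 and Hoxd10. A match is only a run of letters and was not tested as a binding site. The windows of Hoxb4, at chr11:96318017-96318266, and of Hoxd3, at chr2:74711743-74711992, both on the plus strand, are shown as a pair because the Hoxb4 probe rose in sg/sg WAT and neither Hoxd3 probe did. Capitals mark the match, which starts at position -81 in Hoxb4 and -161 in Hoxd3, counted from the start.
Hoxb4: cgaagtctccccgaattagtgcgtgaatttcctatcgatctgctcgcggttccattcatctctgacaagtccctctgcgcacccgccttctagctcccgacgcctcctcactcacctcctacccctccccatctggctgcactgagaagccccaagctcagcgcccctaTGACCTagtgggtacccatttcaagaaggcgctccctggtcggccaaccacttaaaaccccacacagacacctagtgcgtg
Hoxd3: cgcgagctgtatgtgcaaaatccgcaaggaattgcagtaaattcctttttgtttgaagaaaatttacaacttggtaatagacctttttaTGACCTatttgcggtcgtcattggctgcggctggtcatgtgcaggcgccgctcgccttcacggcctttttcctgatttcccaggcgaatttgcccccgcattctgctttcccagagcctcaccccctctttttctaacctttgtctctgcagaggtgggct
Of the genes that rose in sg/sg WAT, 8 had a window and 1 of them, Hoxb4, held the match.

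As a check of the labels, the signals of all 3 Rora probes in sg/sg mice lay below the whole WT range in both tissues. The log2 difference lay between -2.75 and -2.72 in WAT and between -2.88 and -2.81 in liver, and 1 of the 3 probes did not reach detection on the sg/sg liver arrays. The adipocyte genes Adipoq, Plin1 and Lep were well above background on all 10 WAT arrays and on at most 1 liver array. They were picked from a list of 12 genes. Of that list, Cidec, Lipe, Slc2a4, Pparg and Fabp4 were detected on all liver arrays too, and Cfd on most. Retn, Acvr1c and Tusc5 were detected on few liver arrays or none. The 11 hepatocyte genes found on the array were detected on all liver arrays. Of these, Alb, Apoa1, Tat, Hnf4a, Cyp2e1, G6pc and Fgb were detected on all WAT arrays as well. Apob and Cps1 were detected on most WAT arrays, and Ttr and Fga on few. Between 56.5% and 62.4% of all probes were well above background on liver arrays and between 71.9% and 81.1% on WAT arrays. The 75th percentile of intensity, to which values were scaled, ran lower in sg/sg mice. In liver it was 817 to 1090 in WT and 648 to 901 in sg/sg mice. In WAT it was 1936 to 2598 in WT and 1352 to 2053 in sg/sg mice. Overlap between genotypes is described below after this scaling. Unscaled Hoxa2 intensities overlapped in WAT (97.6 to 166 in WT, 99.0 to 188 in sg/sg mice). Those of Hoxa7 did not (7364 to 13306 and 17277 to 24200).

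WAT expressed Hox genes of all 4 clusters, and liver a narrow range of them (map of detection). Between 34 and 42 of the 49 Hox probes were well above background on a WAT array and between 11 and 16 on a liver array. In WAT the detected stretch reached Hoxa11 in the Hoxa cluster and ran from Hoxb2 to Hoxb9 (chr11:96384790-96462906), from Hoxc4 to Hoxc10 (chr15:102957582-103022308) and from Hoxd3 to Hoxd12 (chr2:74518833-74591274), with Hoxd11 not detected inside the last. The genes at the tail end, Hoxa13 and Hoxd13 with 2 probes each, Hoxb13, Hoxc12 and Hoxc13, and the low-numbered Hoxb1 and Hoxd1, had no probe that met the rule, nor did a second probe each of Hoxb8 and Hoxc10. Of all Hox probes, 33 were above background on all 10 WAT arrays. Just inside the rule stood the Hoxa11 probe, above background on 4 WAT arrays, 1 WT and 3 sg/sg, and in liver the Hoxa4 probe A_52_P638382, on 4 arrays. Just outside stood the Hoxc10 probe A_52_P351859, on 2 WAT arrays, and in liver the Hoxa5 and Hoxd12 probes, on 3 arrays each. Hoxc11 was not analysed here. Since the rule used these values, they describe the set and support nothing.

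**Figure D1:**
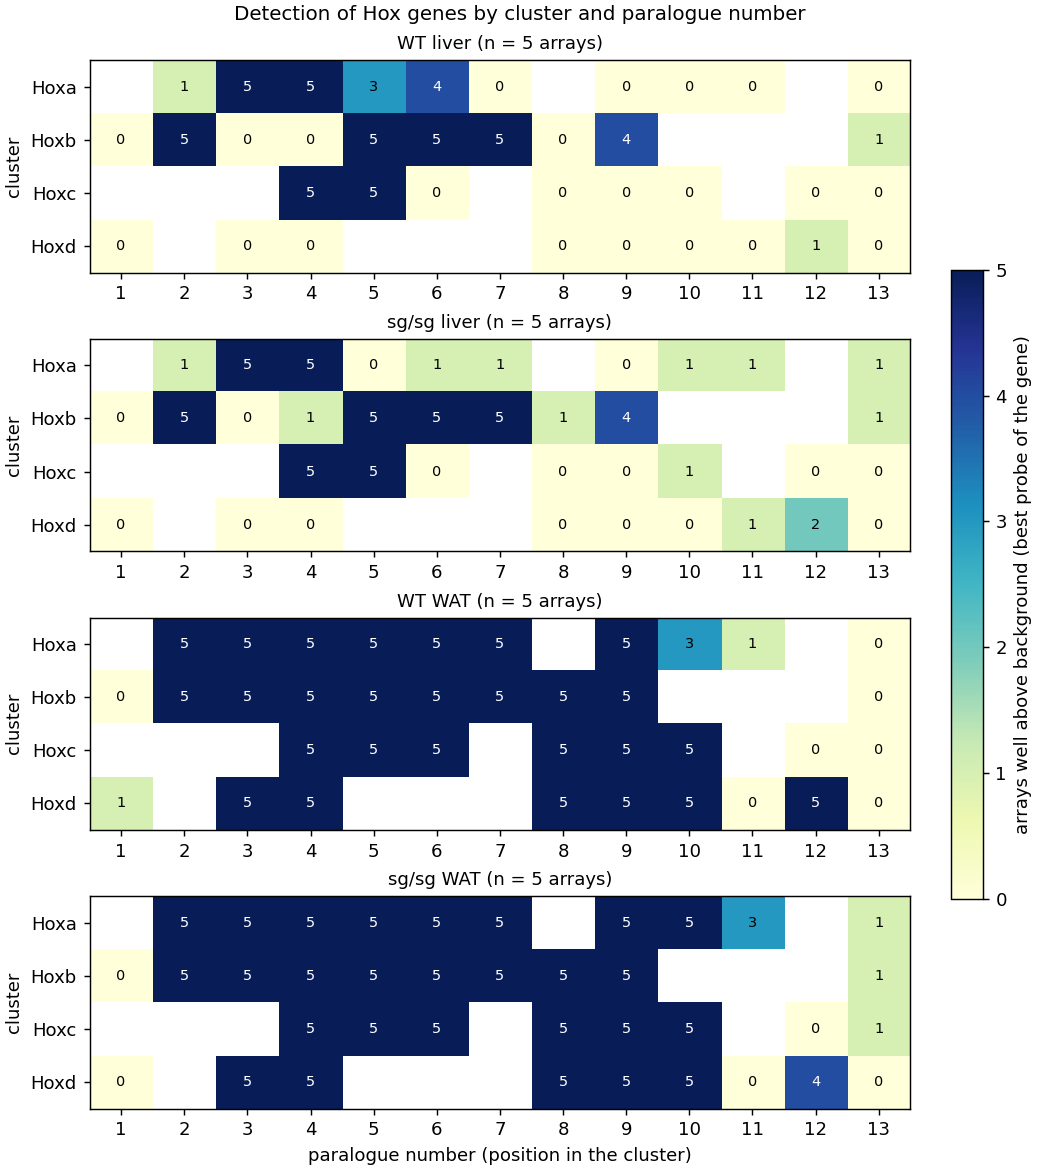
Number of arrays, of 5 per group, on which the best probe of each Hox gene was well above background, by cluster (vertical axis) and paralogue number (horizontal axis), with 1 panel per group. White squares have no value here. WAT panels are filled over most of each cluster up to number 10, while liver panels reach 5 arrays in both genotypes only at Hoxa3, Hoxa4, Hoxb2, Hoxb5 to Hoxb7, Hoxc4 and Hoxc5.

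The levels of WT mice give the tissue difference per probe, as log2 intensity relative to the array's 75th percentile, the scale of all levels below. Each slide held 1 tissue, so tissue and slide cannot be told apart, and these values were not tested. No liver array of WT mice had the probes of Hoxa7, Hoxc6, Hoxc9, Hoxd4 or Hoxd8 above background. Their level in WT WAT was at least 191-fold (Hoxa7), 86.5-fold (Hoxc6), 78.8-fold (Hoxc9), 27.9-fold (Hoxd4) and 23.6-fold (Hoxd8) higher, which is a bound. It sets the WT WAT mean against a detection floor, taken on each liver array as the dimmest probe called well above background, or as the probe's own signal where that was brighter. Hoxb7 was measured on both sides and was 29.4-fold higher in WT WAT (0.92 ± 0.17, SD, n = 5) than in WT liver (-3.96 ± 0.34). The Hoxb6 probe A_51_P232207 was 15.9-fold higher, and the Hoxa5 probe, above background on 3 of 5 WT liver arrays, was 10.5-fold higher. Hoxb2 A_52_P15300 and Hoxb5 were 8.11-fold and 4.48-fold higher in WT WAT, and for Hoxa9, Hoxb3 and Hoxb4, undetected in WT liver, the bounds were 9.78-fold, 8.92-fold and 4.95-fold. Hoxa10, Hoxa11, Hoxc10, Hoxd3 and Hoxd10 were too dim in WT WAT for a fold against that floor.

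Several Hox probes had nearly the same level in both tissues, and where the gene had another probe the probes disagreed. The Hoxb6 probe A_52_P648750 was 1.07-fold higher in WT liver (-1.68) than in WT WAT (-1.78), against the 15.9-fold difference of its partner. The Hoxa3 probe A_52_P447935 differed 1.06-fold (-2.74 in liver, -2.82 in WAT), while the other Hoxa3 probe was above background on no liver array and at least 1.68-fold higher in WT WAT. The Hoxa4 probe A_52_P638382 was above background on 1 of 5 WT liver arrays and, at -5.32 in WT WAT, lay at the detection floor of liver (-5.29), so no fold is given; its partner was 2.31-fold higher in WAT. Hoxc5 (1.07-fold) and Hoxa6 (1.07-fold) have 1 probe each. The Hoxc4 probe was 5.77-fold higher in liver, at -0.96 ± 0.14 in WT liver and -3.49 ± 0.29 in WT WAT. It is listed at chr15:103022266-103022308, 43 bases for a 60-base probe, and 66.7% of its bases are pyrimidines. Whether such probes report the named gene in liver was not tested.

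Before the genotypes are compared, 2 WAT arrays that stood apart need naming. On WT WAT replicate 2, 21.6% of the 37 Hox probes and 9.93% of all probes tested lay more than 1 log2 unit from the median of the other 4 WT arrays. On sg/sg WAT replicate 4 these shares were 21.6% of Hox probes and 15.3% of all probes. The other WAT arrays had 0 to 8.11% of Hox probes and 2.1% to 6.62% of all probes that far out. WT replicate 2 had the highest 75th percentile of intensity (2598) and share of probes above background (81.1%) of the WAT arrays. Both were lowest on sg/sg replicate 4 (1352 and 71.9%). WT replicate 2 was also the array with the lowest mean adipocyte level (4.75, other WT arrays 5.45 to 5.58), the highest macrophage level (4.11, others 3.09 to 3.81) and the highest level of epididymis and testis genes (-1.70, others -6.36 to -3.13).

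**Figure D2:**
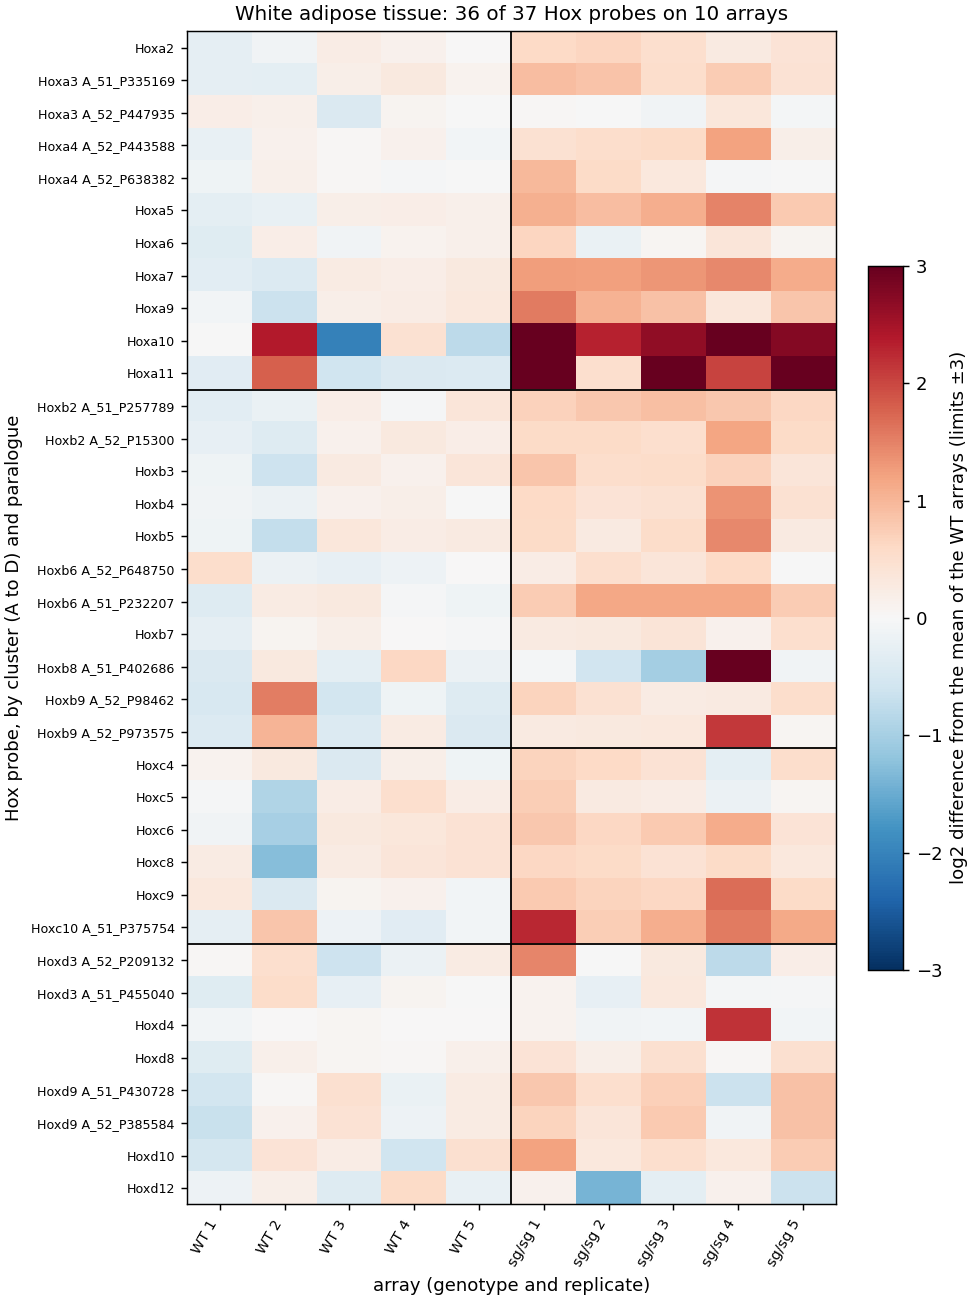
Log2 difference of 36 of the 37 Hox probes (rows, by cluster and paralogue) from its mean over the 5 WT arrays, on each of the 10 WAT arrays (columns), with the colour scale ending at ±3. The 15 called rows are red in all 5 sg/sg columns, and sg/sg 4 stands out at Hoxb8, Hoxb9 A_52_P973575 and Hoxd4, WT 2 at Hoxb9 A_52_P98462 and Hoxc8.

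In WAT, 14 of the 30 Hox genes rose in sg/sg mice, 8 of them in the Hoxa cluster, with Hoxa11 below detection on 4 of 5 WT arrays. Of the 37 probes, 15 were called, that is, passed an adjusted p of 0.05 in the limma fit, and all 15 rose. The 15 include the opposite-strand probe A_51_P257789, which the files name Hoxb2. Over all 32315 probes tested 21.9% were called, 12.8% higher and 9.14% lower. No Hox probe fell; at an unadjusted p of 0.05, 21 Hox probes were higher and 0 lower, and of all 32315 probes 6945 were higher and 4477 lower. The mean was higher in sg/sg for 36 of 37 probes (58.3% of all probes), and for 11 of 37 every sg/sg array lay above every WT array (12.1% of all probes). The median log2 difference of the Hox probes was 0.52, against 0.08 over all probes. These counts hold the Hoxa10 and Hoxa11 probes, which were detected on more sg/sg than WT arrays. Among the 33 probes detected on all 10 arrays, 13 were called. The members were proposed with results of these arrays known, so the counts describe the set. Under normexp background correction the median of all probes moved to 0.49 and that of the Hox probes to 0.89, and 5 of the 15 calls were kept, Hoxa5, Hoxa7, Hoxa9, Hoxb6 and Hoxc9, while the share of all probes called fell to 4.62%. Without WT replicate 2, 13 probes were called, without sg/sg replicate 4, 20, and without both, 19, each of them higher in sg/sg mice, and of the 15 calls only that of Hoxb3 was lost without both. The share of all probes called in these fits is not given here, so the change in count is not read as particular to Hox probes.

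Differences between the clusters were not tested. In the Hoxa cluster 8 of 12 probes rose, in Hoxb 5 of 11, in Hoxc 2 of 6, and in Hoxd none of 8 passed (limma), with 2 at an unadjusted p of 0.05 and 3 called without sg/sg replicate 4. The 5 in Hoxb include the opposite-strand probe A_51_P257789. The median log2 differences were 0.64, 0.61, 0.63 and 0.36. By paralogue number, 7 of 14 probes of numbers 1 to 4 rose, 3 of 12 of numbers 5 to 8 and 5 of 11 of numbers 9 to 13. RNA of a whole tissue was measured, in which fewer cells of a type and less RNA per cell cannot be told apart.

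**Figure D3:**
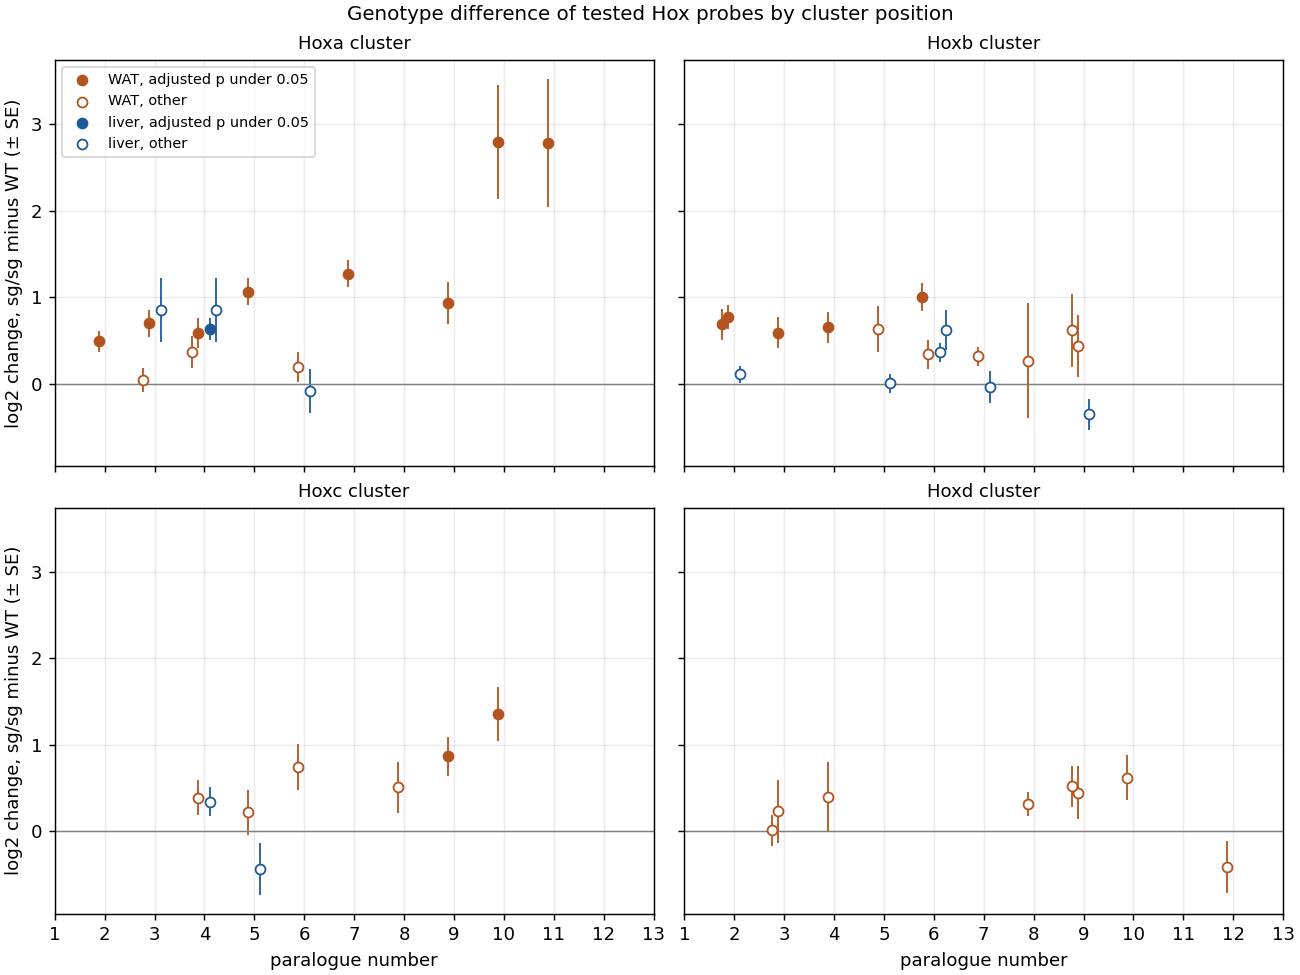
Log2 difference of sg/sg minus WT (± SE, 5 arrays per genotype) of tested Hox probes against their paralogue number, with 1 panel per cluster, in WAT (orange) and liver (blue). Filled points passed an adjusted p of 0.05: 8 in the Hoxa panel and 0 in the Hoxd panel for WAT, and 1, Hoxa4, for liver.

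Hoxa7 and Hoxa5, from the middle of the Hoxa cluster, had the smallest adjusted p of the set. Hoxa5 is known for its part in lung and thoracic patterning, and Hoxa7 for patterning of the trunk vertebrae. The Hoxa7 level on WT arrays 1 to 5 was 1.93, 1.82, 2.47, 2.43 and 2.52, and on sg/sg arrays 1 to 5 it was 3.49, 3.46, 3.56, 3.68 and 3.34. The lowest sg/sg array lay above the highest WT array by more than the range of the sg/sg arrays. The log2 difference was 1.27 ± 0.16 (SE; limma adjusted p = 0.00106), a 2.41-fold rise. For Hoxa5 the WT arrays read -2.47, -2.40, -1.99, -1.99 and -2.02 and the sg/sg arrays -1.11, -1.26, -1.09, -0.69 and -1.40. Again no arrays of the genotypes overlapped, and Hoxa5 rose by 1.06 ± 0.16 (SE; limma adjusted p = 0.00189).

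Hoxa2, Hoxa3 and Hoxa4, at the head end of the cluster, pattern the hindbrain and neck in the embryo. Hoxa2 read -4.31, -4.16, -3.81, -3.91 and -4.04 on WT arrays and -3.44, -3.41, -3.54, -3.77 and -3.63 on sg/sg arrays. The groups nearly touched at -3.81 and -3.77, and the rise was 0.49 ± 0.12 (SE; limma adjusted p = 0.018). The Hoxa3 probe A_51_P335169 read -4.93, -4.96, -4.49, -4.38 and -4.55 on the WT arrays against -3.74, -3.82, -4.14, -3.90 and -4.24 on the sg/sg arrays, without overlap. It rose by 0.70 ± 0.15 (SE; limma adjusted p = 0.0105), while the second Hoxa3 probe, the one with nearly equal levels in liver and WAT, differed by 0.04 ± 0.14 (SE; limma adjusted p = 0.872). The Hoxa4 probe A_52_P443588 read -2.68, -2.32, -2.43, -2.33 and -2.53 on the WT arrays against -2.0, -1.94, -1.89, -1.25 and -2.28 on the sg/sg arrays. The highest WT array, -2.32, and the lowest sg/sg array, -2.28, lay close together, sg/sg replicate 4 was the highest array, and the rise was 0.59 ± 0.18 (SE; limma adjusted p = 0.0389); the other Hoxa4 probe differed by 0.37 ± 0.19 (SE; limma adjusted p = 0.192). Hoxa6, which was not called, differed by 0.19 ± 0.17 (SE; limma adjusted p = 0.483).

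Hoxa9, Hoxa10 and Hoxa11 belong to the part of the cluster that acts in the limb, the kidney and the reproductive tract. The Hoxa9 level was -2.21, -2.75, -1.95, -1.89 and -1.80 on WT arrays and -0.56, -1.09, -1.24, -1.78 and -1.28 on sg/sg arrays. The highest WT array, at -1.80, nearly met the lowest sg/sg array, replicate 4 at -1.78, and Hoxa9 rose by 0.93 ± 0.24 (SE; limma adjusted p = 0.0212). Hoxa10 read -7.58, -5.20, -9.60, -7.10 and -8.35 in WT mice, where 3 of 5 arrays were above background, and -4.41, -5.25, -4.91, -4.47 and -4.81 on the sg/sg arrays, where all 5 were. WT replicate 2 lay among the sg/sg arrays, and the other 4 WT arrays lay below all of them. The difference was 2.79 ± 0.66 (SE; limma adjusted p = 0.0145), and without both arrays that stood apart it was 3.31 (adjusted p = 0.0029). Hoxa11 read -10.12, -7.98, -10.39, -10.22 and -10.20 on the WT arrays against -5.23, -9.28, -6.13, -7.74 and -6.57 on the sg/sg arrays. Only 1 WT array, replicate 2, and 3 sg/sg arrays were above background, so the probe met the detection rule mainly through sg/sg mice. The fitted difference passed, at 2.79 ± 0.74 (SE; limma adjusted p = 0.0237), but rests on 6 arrays without detection, 4 of them WT, and its size is not a measured fold.

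In the Hoxb cluster the rise was seen at the head end and at Hoxb6. Hoxb2, a gene of hindbrain patterning, was read by the probe A_52_P15300 at -0.08, -0.21, 0.30, 0.47 and 0.36 on the WT arrays against 0.74, 0.73, 0.68, 1.35 and 0.75 on the sg/sg arrays. The groups did not overlap, and 4 sg/sg arrays lay between 0.68 and 0.75 with replicate 4 above them at 1.35. The rise was 0.68 ± 0.18 (SE; limma adjusted p = 0.0211). The opposite-strand probe A_51_P257789 read -4.27, -4.15, -3.75, -3.97 and -3.59 on the WT arrays against -3.26, -3.13, -3.04, -3.13 and -3.32 on the sg/sg arrays, also without overlap, and rose by 0.77 ± 0.14 (SE; limma adjusted p = 0.00421). Hoxb6, known from trunk patterning and early blood formation, was read by A_51_P232207 at -0.59, 0.03, 0.08, -0.25 and -0.33 on the WT arrays against 0.55, 0.95, 0.96, 0.94 and 0.55 on the sg/sg arrays. No arrays overlapped, and it rose by 1.0 ± 0.16 (SE; limma adjusted p = 0.00229), a 2.0-fold change. The second Hoxb6 probe, nearly equal in liver and WAT, differed by 0.34 ± 0.17 (SE; limma adjusted p = 0.193).

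Hoxb3 and Hoxb4, the latter known for its part in blood stem cells, ranged over -2.87 to -1.89 and -3.28 to -2.94 in WT and over -1.89 to -1.43 and -2.70 to -1.76 on the sg/sg arrays. Hoxb3 rose by 0.59 ± 0.18 (SE; limma adjusted p = 0.0442), with its groups meeting at about -1.89, and Hoxb4 by 0.65 ± 0.18 (SE; limma adjusted p = 0.0285), without overlap. Without both arrays that stood apart the Hoxb3 difference was 0.41 (adjusted p = 0.0533) and the Hoxb4 difference 0.43 (adjusted p = 0.00786). The Hoxb5, Hoxb7, Hoxb8 and Hoxb9 probes were not called: the differences were 0.63 ± 0.27 for Hoxb5, 0.31 ± 0.11 for Hoxb7, 0.27 ± 0.67 for Hoxb8, and 0.43 ± 0.36 and 0.61 ± 0.43 for the Hoxb9 probes, with adjusted p from 0.0694 to 0.818. At Hoxb8, 4 sg/sg arrays read -5.97 to -5.02 and replicate 4 read -1.89.

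The Hoxc genes act in the trunk and hindlimb region, and Hoxc9 and Hoxc10 are known for depot-dependent expression in fat. Hoxc9 read 1.20, 0.45, 0.98, 1.01 and 0.82 on the WT arrays against 1.68, 1.56, 1.5, 2.57 and 1.47 on the sg/sg arrays. The groups did not overlap, and 4 sg/sg arrays lay between 1.47 and 1.68 with replicate 4 at 2.57. It rose by 0.87 ± 0.23 (SE; limma adjusted p = 0.0217), and by 0.55 (adjusted p = 0.00483) without both arrays that stood apart. The Hoxc10 probe A_51_P375754 read -7.67, -6.57, -7.55, -7.75 and -7.49 on the WT arrays against -5.14, -6.68, -6.31, -5.85 and -6.28 on the sg/sg arrays. WT replicate 2 lay just above the lowest sg/sg array, replicate 2, and the other WT arrays lay lower. The rise was 1.36 ± 0.31 (SE; limma adjusted p = 0.0124). Hoxc4, Hoxc5, Hoxc6 and Hoxc8 were higher in sg/sg mice by 0.22 to 0.74 and not called, and Hoxc6 came nearest, at 0.74 ± 0.27 (SE; limma adjusted p = 0.0709).

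Hoxd genes, known from limb and genital development, gave no call in WAT with all arrays. Without sg/sg replicate 4, 3 of them were called, both Hoxd9 probes (adjusted p 0.0227 and 0.0433) and Hoxd8, and without both arrays that stood apart 2, Hoxd9 A_51_P430728 and Hoxd8 (adjusted p 0.0405 for the latter), each higher in sg/sg mice (limma). On all arrays the 8 probes differed by -0.41 to 0.62, with adjusted p from 0.12 to 0.968. Hoxd12 was the only Hox probe with a lower mean in sg/sg mice, -0.41 ± 0.30. Hoxd4 read -0.70, -0.60, -0.55, -0.59 and -0.59 on the WT arrays against -0.49, -0.71, -0.69, 1.57 and -0.70 on the sg/sg arrays. All WT arrays and 4 sg/sg arrays thus lay between -0.71 and -0.49, and sg/sg replicate 4 stood alone at 1.57.

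**Figure D4:**
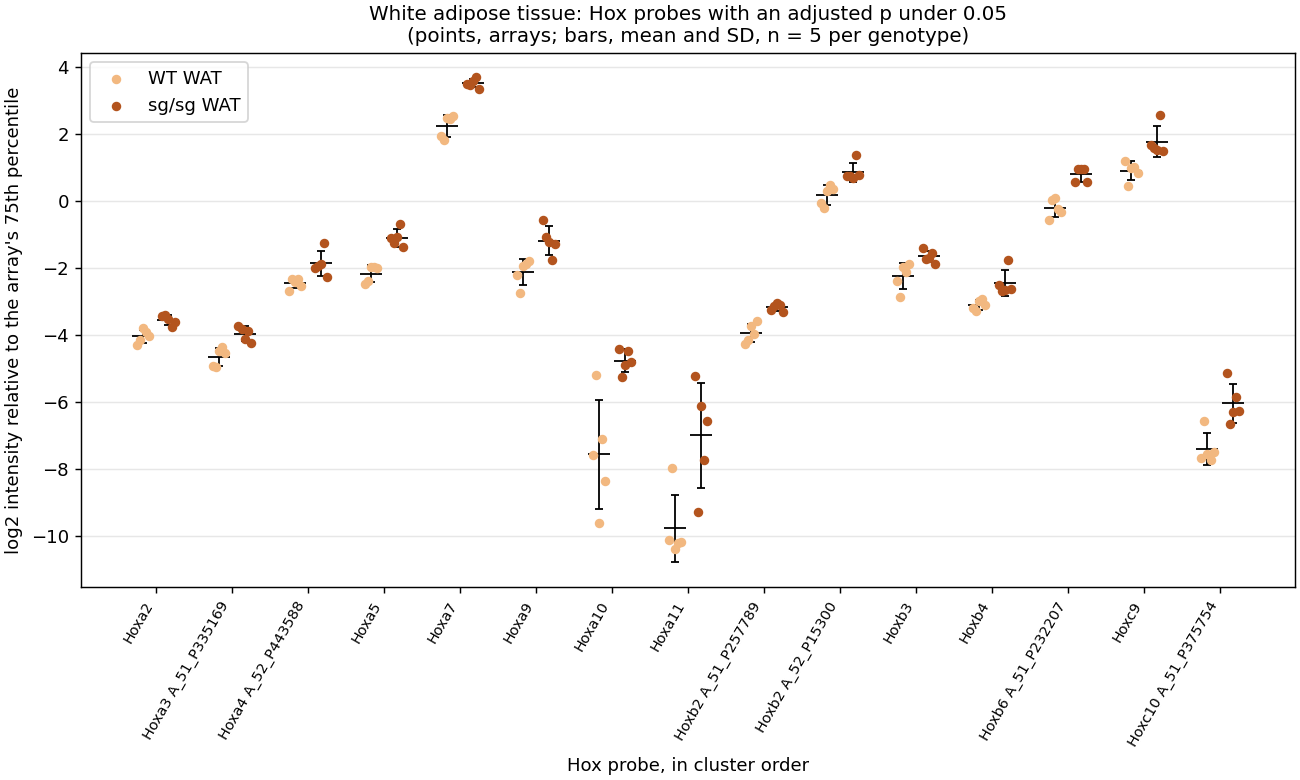
Log2 intensity relative to the array's 75th percentile (vertical axis) of the 15 Hox probes called in WAT, by genotype: points are arrays, bars the mean and SD of 5 arrays. Genotypes are apart without overlap for 11 of the 15, with the widest bars at Hoxa10 and Hoxa11, where WT arrays reach down to -9.60 and -10.39. Levels of different probes are not comparable.

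The slides of the WAT arrays each held both genotypes. With slide as a fixed block 14 of the 37 probes were called, while no fit within a single slide of 3 or 4 arrays called any probe (limma), with 11, 15 and 7 Hox probes at an unadjusted p of 0.05, beside 4786, 5078 and 4310 of all probes. The share of all probes called with the slide block is not given here, so its count is not read as particular to Hox probes. Slide 1 held 2 arrays of each genotype, slide 2 only 1 WT array and slide 3 only 1 sg/sg array, and a lone array was assumed to vary like the others. The within-slide difference was 1.37, 0.93 and 1.36 for Hoxa7 and 1.26, 0.78 and 1.08 for Hoxa5. Of the 37 probes, 25 were higher in sg/sg mice in each of the 3 slides, among them the 15 called ones, which had been picked on the same arrays. Single arrays decided some of the calls near the threshold. The Hoxa4 call ended without any 1 of the 5 WT arrays or of sg/sg replicates 1, 2 and 3 (adjusted p 0.0517 to 0.0909), and the Hoxa11 call without WT replicate 1, 3, 4 or 5 or sg/sg replicate 3 (0.0516 to 0.0577). The Hoxb3 call ended without WT replicate 1, 2 or 4 or sg/sg replicate 1, 2, 3 or 4 (0.0533 to 0.0959), the Hoxb4 call without WT replicate 1, 2 or 5 or sg/sg replicate 1 (0.0511 to 0.0658), and that of the Hoxb2 probe A_52_P15300 without WT replicate 1 (0.0545). The calls of the other 10 probes held in each of these 10 fits.

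In liver, 1 of 13 Hox probes passed, Hoxa4 A_52_P443588, which rose (limma). Over all 24675 probes tested in liver 14.6% were called, 8.1% higher and 6.49% lower, a split that moved to 865 higher of 3156 called when arrays were scaled to their median. No Hox probe fell; at an unadjusted p of 0.05, 5 Hox probes were higher and 0 lower, and of all 24675 probes 4636 were higher and 3356 lower. The mean was higher in sg/sg mice for 8 of 13 probes (55.4% of all probes), and 1 of 13 was separated without overlap (6.62% of all probes). The median log2 difference of the Hox probes was 0.11, against 0.04 over all probes, the latter moving to -0.07 under median scaling and the former to 0.00.

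Hoxa4 read -3.65, -3.69, -3.73, -3.79 and -3.48 on WT liver arrays and -3.0, -3.13, -3.43, -2.71 and -2.91 on sg/sg liver arrays. The highest WT array, -3.48, nearly met the lowest sg/sg array, -3.43, and the difference was 0.63 ± 0.13 (SE; limma adjusted p = 0.0158). Genotype and slide were largely the same in liver: 4 WT arrays shared a slide, 2 sg/sg arrays shared another, and only 1 slide held both genotypes, with 1 WT and 3 sg/sg arrays. Within that slide the Hoxa4 difference was 0.29. With slide as a block the difference rested on the same slide and was again 0.29, which is not a second check. The call did not hold in that fit (limma adjusted p = 0.718). With only 1 WT array on that slide, the loss of the call cannot tell genotype from slide.

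The other Hox genes seen on all liver arrays gave no call. The Hoxa3 probe A_52_P447935 read -3.09, -3.03, -2.84, -2.40 and -2.33 on the WT arrays against -2.70, -2.43, -2.41, -0.74 and -1.16 on the sg/sg arrays. The 2 highest arrays, sg/sg replicates 4 and 5, were the pair on a slide of their own, and the difference was 0.85 ± 0.37 (SE; limma adjusted p = 0.141). Hoxb2 A_52_P15300 read -2.89, -2.56, -2.84, -3.06 and -2.91 on the WT arrays against -2.64, -2.78, -2.74, -2.72 and -2.84 on the sg/sg arrays, overlapping throughout, with a difference of 0.11 ± 0.10 (SE; limma adjusted p = 0.478). Hoxb5, a gene of gut and lung development, read -2.40, -2.70, -2.98, -2.76 and -2.86 on the WT arrays against -2.64, -2.72, -2.61, -2.84 and -2.87 on the sg/sg arrays. It too overlapped, at 0.00 ± 0.11 (SE; limma adjusted p = 0.993). Hoxb6 A_51_P232207 read -3.88, -4.46, -3.94, -4.68 and -4.06 on the WT arrays against -3.66, -3.78, -2.78, -3.73 and -3.98 on the sg/sg arrays, where replicate 3 stood highest, and differed by 0.62 ± 0.23 (SE; limma adjusted p = 0.0977). The second Hoxb6 probe, A_52_P648750, came nearest to a call, at 0.36 ± 0.11 (SE; limma adjusted p = 0.055), and was called in 2 alternatives, among the probes detected on all arrays and without WT replicate 5 (limma adjusted p = 0.0339 in the latter, up to 0.921 over its alternatives). Hoxb7, known from kidney and trunk patterning, read -3.83, -4.47, -3.57, -4.07 and -3.85 on the WT arrays against -4.11, -3.63, -4.14, -3.76 and -4.34 on the sg/sg arrays, a difference of -0.04 ± 0.18 (SE; limma adjusted p = 0.908). Hoxc4 and Hoxc5, also on all liver arrays, differed by 0.34 ± 0.17 and -0.44 ± 0.30, the latter over 4 sg/sg arrays since an outlying spot was set missing.

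**Figure D5:**
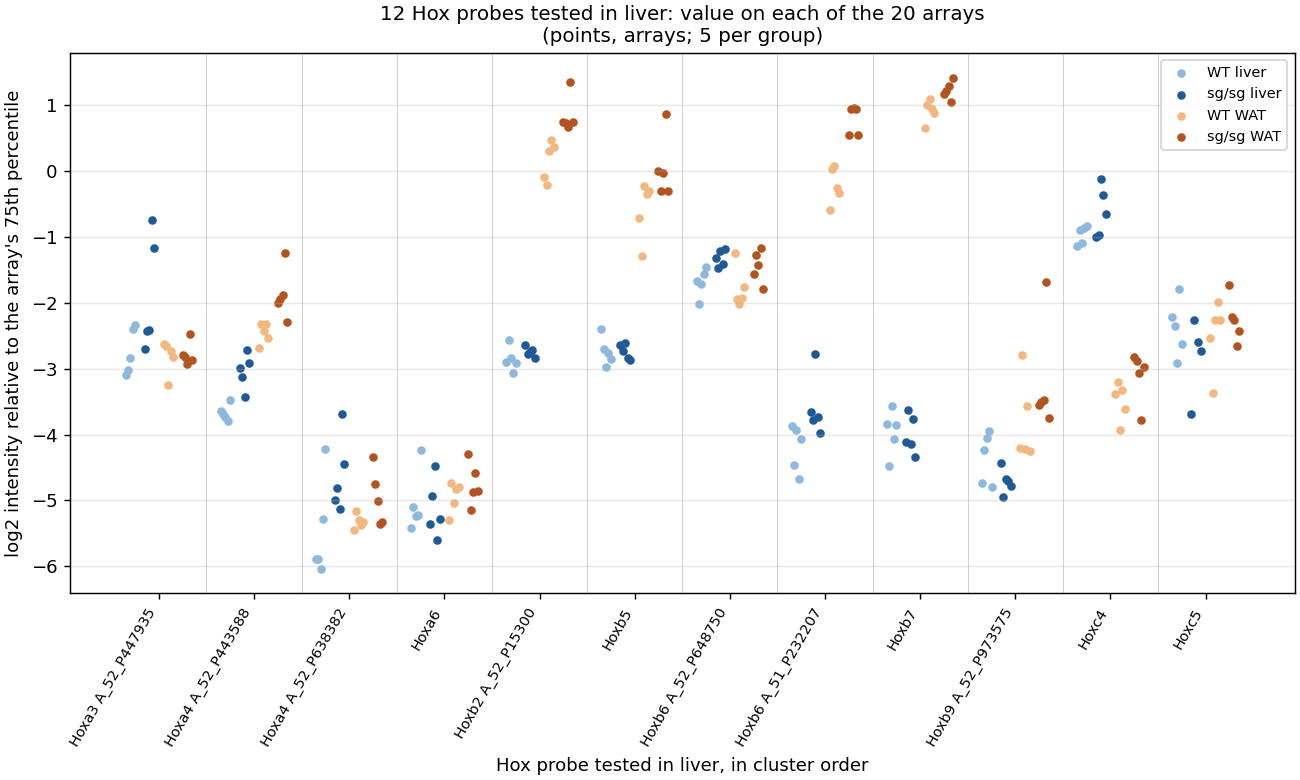
Log2 intensity relative to the array's 75th percentile (vertical axis) of 12 of the 13 Hox probes tested in liver, with 5 arrays for each of the 4 groups. WAT arrays lie far above liver arrays at Hoxb2, Hoxb5, Hoxb6 A_51_P232207 and Hoxb7, liver arrays lie above WAT at Hoxc4, and the 4 groups overlap at Hoxa6, Hoxb6 A_52_P648750 and Hoxc5. Levels of different probes are not comparable.

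Whether the genotype difference itself differed between tissues could be asked of the 13 probes measured in both. Only Hoxb2 A_52_P15300 passed, with the WAT difference 0.58 ± 0.20 (SE) above the liver difference and an adjusted p of 0.0498 for the interaction term of the limma fit on 20 arrays. Over all 24344 probes 19.9% passed this test, 10.5% with the WAT difference above that of liver, or 2550 of 4834 calls, a split that moved to 2892 of 4425 under median scaling. The Hoxb2 call stood at the threshold and was lost in 20 of 26 alternative settings. The 26 include the deposited value table, which held the same values and so could not change the call. For Hoxa4, called in both tissues, the differences were 0.59 in WAT and 0.63 in liver, and the interaction was -0.05 ± 0.22 (adjusted p = 0.907). The interaction fit had no slide term, for Hoxb2 as well, and in liver genotype and slide were largely the same. Within the liver slide that held both genotypes the Hoxa4 difference was 0.29. Hoxb6, called in WAT, had the probe measured in both tissues, and its interaction was 0.38 ± 0.29 (adjusted p = 0.375). The other genes called in WAT, Hoxa3 included, had no called probe that was also tested in liver.

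Of the TALE cofactors, 3 of 12 rose in sg/sg WAT, Meis1, Meis2 and Pbx2, and none of the others passed (limma). Meis1, a partner of Hoxa9 in blood cells, rose by 1.13 ± 0.16 (adjusted p = 0.00158), and Meis2 by 0.82 ± 0.12 (adjusted p = 0.00178). The cofactors Pbx3 at -0.05 ± 0.09 (adjusted p = 0.716) and Pknox1 at -0.13 ± 0.12 (adjusted p = 0.486) did not pass. The median over the list was 0.30 (0.08 over all probes, of which 21.9% were called). In liver the differences were 0.22 ± 0.46 (adjusted p = 0.776) for Meis1 and 0.06 ± 0.11 (adjusted p = 0.746) for Meis2, and 3 of 12 passed, Pbx2 and Pbx3 higher and Tgif1 lower. Of all liver probes 14.6% were called, in a fit without a slide term, while genotype and slide were largely the same there.

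Of 29 Polycomb genes in WAT, 8 rose and 3 fell, with a median of 0.20. The WAT counts of this paragraph stand beside 12.8% of all WAT probes called higher and 9.14% lower. Cbx7, a reader of the repressive histone mark, rose by 1.23 ± 0.21 (adjusted p = 0.00355), Ezh2, the enzyme that writes it, fell with a difference of -0.45 ± 0.13 (adjusted p = 0.0325), and Bmi1, a core subunit, stood at 0.09 ± 0.09 (adjusted p = 0.513). Of 15 trithorax and MLL genes, 4 rose and the other 11 did not pass, with a median of 0.30. The methyltransferase gene Kmt2a rose by 0.50 ± 0.09 (adjusted p = 0.00351) and its partner Men1 by 0.37 ± 0.11 (adjusted p = 0.0333), beside Kmt2b and Kmt2c. In liver 4 of 27 Polycomb genes passed, 3 higher and 1 lower, as did 4 of 15 trithorax genes, 2 each way, where 14.6% of all liver probes were called. That fit too had no slide term.

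Of 17 retinoid genes in WAT, 1 rose, Rdh10, which makes retinal, 2 fell, Aldh1a3 and Rara, and the other 14 did not pass, with a median of 0.20. This count and that of the flanking genes below stand beside 21.9% of all WAT probes called, and neither list was tested as a set. The retinoic acid receptor Rarb, a known retinoic acid target, differed by -0.01 ± 0.16 (adjusted p = 0.981), the degrading enzyme Cyp26b1 by 0.06 ± 0.36 (adjusted p = 0.929) and the synthesising enzyme Aldh1a2 by -0.16 ± 0.29 (adjusted p = 0.735). The genes that flank the clusters, listed for their chromosomal neighbourhood, had a median of -0.09. Of 16, Hibadh rose, and Skap2 and Snx10 fell, all 3 beside the Hoxa cluster. Skap2 had a difference of -0.59 ± 0.13 (adjusted p = 0.0107), while Mtx2 beside the Hoxd cluster differed by -0.21 ± 0.11 (adjusted p = 0.223) and Hnrnpa1 beside the Hoxc cluster by -0.12 ± 0.12 (adjusted p = 0.515).

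Markers of cell types moved between the WAT groups as well, and their part in the Hox result was not tested. The counts of each list stand beside 21.9% of all WAT probes called, 12.8% higher and 9.14% lower. Of 12 genes of visceral depots and of the mesothelium, the layer that covers visceral fat, 8 rose and the others did not pass, with a median of 1.07. The mean level over that list ran from -0.55 to 0.79 on WT arrays and from 0.67 to 1.31 on sg/sg arrays. Wt1, a transcription factor of visceral fat and mesothelium, rose by 1.04 ± 0.24 (adjusted p = 0.0132). Of 12 macrophage genes 10 fell and the other 2 did not pass, with list means of 3.09 to 4.11 in WT and 1.82 to 2.36 in sg/sg mice. Of 12 adipocyte genes 6 rose and 1, Lep, fell (5.45 to 5.58 in WT mice except replicate 2 at 4.75, and 5.74 to 6.02 in sg/sg mice). Of 14 stromal and progenitor genes 4 fell (3.35 to 3.74 and 3.22 to 3.54). Of 6 developmental genes of subcutaneous depots 1 passed, Ebf3, which rose, with list means of -2.19 to -1.97 and -2.14 to -1.63, and En1 and Zic1 of that list were above background on no WAT array. None of 10 epididymis and testis genes passed (limma), with list means of -6.36 to -1.70 in WT and -6.36 to -4.98 in sg/sg mice, and of that list Lcn8, Defb12 and Pate4 were above background on no array. Of the lists for other tissues in WAT, muscle had 3 of 10 genes that rose (-2.28 to -1.84 and -2.0 to -1.20) and endothelium 1 of 10 (1.91 to 2.49 and 2.30 to 2.50). Hepatocyte had 1 of 9 that rose (-4.75 to -1.81 and -3.82 to -1.90), and lymphocyte 1 of 10 that fell (-3.13 to -2.61 and -2.81 to -2.54). None of 7 kidney genes passed, but their median difference was 0.83. The kidney list means spread widely between arrays, from -4.97 to -3.06 in WT and from -5.01 to -1.93 in sg/sg mice.

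Markers also moved between the liver groups, and their part in the Hoxa4 result was not tested. Here 14.6% of all probes were called, 8.1% higher and 6.49% lower. The fit had no slide term, and genotype and slide were largely the same in liver, so these counts cannot be tied to genotype alone. Of 8 visceral and mesothelium genes tested in liver 2 rose, Tcf21 and Krt19 (list means -3.30 to -2.05 in WT and -2.65 to -1.64 in sg/sg mice), as did 4 of 10 endothelium genes (-0.16 to 0.27 and 0.23 to 0.39) and 4 of 10 macrophage genes (1.15 to 1.80 and 1.51 to 1.95). Of 6 adipocyte genes 2 fell, Cfd and Cidec (-0.22 to 2.08 and -1.37 to -0.33), and 2 of 11 hepatocyte genes rose (6.54 to 6.80 and 6.94 to 7.04). Of the remaining lists in liver, 2 of 7 muscle genes, 1 of 2 subcutaneous genes and 1 of 9 lymphocyte genes rose, 1 of 14 stromal genes rose and 1 fell, and none of 5 epididymis and testis genes or of 4 kidney genes passed. Of 16 retinoid genes 1 rose in liver, Rarg, and of 15 flanking genes 2 rose, Snx11 and Cbx5, and 1 fell, Nfe2l1. Genes named beside counts of list members, other than the cofactor, chromatin, retinoid and flanking genes given with an adjusted p in the WAT paragraphs, were picked after their values were seen, as was Wt1.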

How the data were processed

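Total RNA of liver and WAT was labelled with Cy3, per the labels, and hybridised to 1-colour arrays. Intensities were extracted with Agilent Feature Extraction 9.5, which per the file headers subtracted background and detrended spots in space, and the authors deposited them on a linear scale. The deposited value table of the series held the same values. Here each array's log2 intensity was centred on its 75th percentile. Control spots were left out, outlier spots were set missing and repeat spots averaged.

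Probes well above background on 4 or more of 10 arrays, with at most 2 missing values, were fitted per tissue with limma 3.58.1 (lmFit and eBayes, R 4.3.3), with the Benjamini-Hochberg adjustment over all probes tested and a threshold of 0.05. The interaction was fitted on 20 arrays. Gene lists used the brightest probe of each gene. Names came from the files, and through RefSeq accessions for 55.7% of 41174 probes. Of Hox genes, those with a called probe were given in full up to 12 by smallest p, and those detected in liver up to 6. The tie of 8 at 10 liver arrays was cut in cluster order, and Hoxc4 and Hoxc5 were added after their values were seen. Of the lists, 16 genes and Rora were to be named whatever they did. Values of some of these and of some Hox probes are counted but not reported or drawn here. The members and lists were chosen with earlier results of these data known. The steps were tested on simulated data. Alternatives changed the background correction, scaling, filter, probe choice, slide, replicate block and arrays used. The number of arrays limits the precision.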

Additional observations from a re-analysis of the deposited data

Results flagged for a closer look

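Of 100 combinations of a Hox probe and a group of 5 arrays, 16 had 1 array far from the other 4 (gap to its neighbour over 0.71 of the group's range). That is 16%, where chance gives about 1 in 20. They gathered on the arrays already described: 9 lay on sg/sg WAT replicate 4 and 4 on WT WAT replicate 2.

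On sg/sg WAT replicate 4, Hoxd4 read 1.57 (others -0.71 to -0.49), Hoxb8 -1.89 (-5.97 to -5.02), Hoxb9 A_52_P973575 -1.69 (-3.75 to -3.48), Hoxb2 A_52_P15300 1.35 (0.68 to 0.75), Hoxc9 2.57 (1.47 to 1.68), Hoxb4 -1.76 (-2.70 to -2.52) and Hoxb5 0.87 (-0.30 to 0.00). These probes lay above the other sg/sg arrays, while Hoxc4 at -3.78 (-3.06 to -2.82) and Hoxd9 A_51_P430728 at -4.80 (-3.63 to -3.28) lay below them.

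On WT WAT replicate 2, Hoxa11 read -7.98 (others -10.39 to -10.12), Hoxc10 -6.57 (-7.75 to -7.49) and Hoxb9 A_52_P98462 -1.65 (-3.74 to -3.32), all above the other WT arrays, while Hoxc8 read -3.09 (-1.59 to -1.39), below them. WT WAT replicate 1 was low at Hoxd8, at -1.22 (-0.82 to -0.70). In liver, WT replicate 5 was high at Hoxa6, at -4.24 (-5.43 to -5.10), and sg/sg replicate 3 at Hoxb6 A_51_P232207, at -2.78 (-3.98 to -3.66).

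The genotype difference of Hoxb2 A_52_P15300 differed between the tissues by 0.58 in the interaction test.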

How the results depend on the processing

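The count of 15 Hox probes called in WAT lay between 10 and 15 under quantile normalization (14), median scaling (10), the deposited value table (15), other filters (13 without a filter, 13 for probes detected on all arrays), 1 probe per gene (13) and slide as a fixed (14) or random (15) block. Of all probes, 21.9% were called in the main fit, 21.3% under quantile normalization, 17.7% under median scaling and 14.8% without a filter. The Hox count was 5 under normexp, where 4.62% of all probes were called. Within single slides it was 0 in each of the 3 (limma), where 0 of all probes were called too, with 11, 15 and 7 Hox probes at an unadjusted p of 0.05. Leaving out 1 array gave 10 to 20, the lowest without WT replicate 1, and leaving out both arrays that stood apart, a setting chosen after seeing the data, gave 19. The share of all probes called when arrays were left out is not given here. Of 356 pairs of a called WAT probe and an alternative, 260 kept the call, 96 lost it and none changed direction. The 260 include the pairs of the deposited value table, which held the same values and so could not change a call.

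In liver the count of 1 became 2 under normexp, 2 for probes detected on all arrays, 0 with slide as a fixed block and 0 within slide 2 (2 at an unadjusted p of 0.05 in both, limma), and 1 to 3 when 1 array was left out, with 3 without WT replicate 5. The interaction count of 1 became 0 under normexp (2 at an unadjusted p of 0.05) and 0 under median scaling (4), 3 with a filter passed in either tissue, and 0 to 1 when 1 array was left out.

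Replicate numbers did not pair the arrays. Same-numbered WT and sg/sg arrays had correlations of deviations from -0.14 to 0.09 in WAT and from -0.11 to 0.17 in liver, and 0 of 5 and 1 of 5 arrays correlated best with their own number. With the replicate number as a block, 9 Hox probes were called in WAT, 1 in liver and 0 in the interaction test (limma, with 20, 5 and 3 at an unadjusted p of 0.05).

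Dim probes are the least certain, and Hoxa10 and Hoxa11 were not above background on 2 and 4 of the 5 WT arrays.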
